A study of Mus musculus with 267 samples.

Results

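The mark H3K27ac, acetylation of histone H3 at lysine 27, was followed at 4677 binding sites of the transcription factor EGR2 in macrophages with floxed but intact Egr2 alleles (Egr2flfl). The sites are those of the deposited table of EGR2 peaks that interleukin-4 (IL-4) induced within 24 h, and the members are its 4 H3K27ac libraries of Egr2flfl cells, 2 basal and 2 given IL-4 for 24 h, out of 267 samples in the series. The series used chromatin immunoprecipitation with sequencing (ChIP-seq) to ask how genetically different macrophages respond to IL-4, and Egr2flfl cells are the control arm of its Egr2 deletion. Macrophages were grown from bone marrow of 8- to 12-week-old female mice for 7 days, and the treated groups received 20 ng/mL IL-4. All Egr2flfl groups share the floxed alleles and carry no Cre, while LyzMCreEgr2flfl cells also carry a Cre recombinase driven by the lysozyme M promoter, which acts in myeloid cells. The sites themselves were chosen by the study from EGR2 binding in C57 macrophages (C57BL/6J, wild type). All 4677 overlapped the 29407 reproducible EGR2 peaks listed at 24 h of IL-4, but the full rule that picked them is not stated. Whether any H3K27ac library took part in the choice is therefore not known.

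H3K27ac sits on nucleosomes that flank active promoters and enhancers, and its gain at a distal site is widely read as activation of an enhancer. IL-4 signals through its receptor and the JAK kinases to STAT6, which enters the nucleus and switches on the alternative activation program of macrophages. EGR2 is a zinc finger factor that binds G-rich DNA and is itself induced by IL-4 in macrophages.

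The central 200 bp of 8 sites are given first, since the results below return to them, read from the plus strand of the mm10 genome (RefSeq GRCm38). Capitals mark matches to an EGR motif (GTGGGNG on either strand) and to a STAT6 motif (TTCNNNNGAA, which reads alike on both strands). The stretch near Tex9 (chr9:72485536-72485735, in an intron of Tex9) is shown for one of the largest rises of the mark. Those near Socs1 (chr16:10702466-10702665, in an intron of Clec16a) and Egr2 (chr10:67539117-67539316, in an intron of Egr2) are shown for regulators of the response that gained the mark. Those near Mgl2 (chr11:70114626-70114825), Msx3 (chr7:140051849-140052048) and Arg1 (chr10:24930268-24930467), all intergenic, are shown for genes of alternative activation. The last pair, near Ccr1 (chr9:123928163-123928362) and Aoah (chr13:20784342-20784541), both intergenic, stand for the kept and the lost sites. The first 3 hold both motifs, the next 3 the STAT6 motif alone, and the last pair neither.
Tex9: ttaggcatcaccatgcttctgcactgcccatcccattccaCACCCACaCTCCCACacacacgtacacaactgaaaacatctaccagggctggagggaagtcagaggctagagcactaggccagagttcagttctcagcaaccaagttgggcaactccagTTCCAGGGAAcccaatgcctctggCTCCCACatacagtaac
Socs1: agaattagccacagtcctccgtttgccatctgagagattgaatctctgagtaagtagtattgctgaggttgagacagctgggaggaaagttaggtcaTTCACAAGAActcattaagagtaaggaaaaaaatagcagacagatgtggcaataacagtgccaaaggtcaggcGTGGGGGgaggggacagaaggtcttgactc
Egr2: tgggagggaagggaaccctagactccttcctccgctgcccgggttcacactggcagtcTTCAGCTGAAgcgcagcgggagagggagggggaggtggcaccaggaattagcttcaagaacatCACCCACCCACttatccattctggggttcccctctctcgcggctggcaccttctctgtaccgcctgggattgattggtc
Mgl2: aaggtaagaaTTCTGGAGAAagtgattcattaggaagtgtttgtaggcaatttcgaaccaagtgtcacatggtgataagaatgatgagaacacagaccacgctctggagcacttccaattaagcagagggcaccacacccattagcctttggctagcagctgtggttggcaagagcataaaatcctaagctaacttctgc
Msx3: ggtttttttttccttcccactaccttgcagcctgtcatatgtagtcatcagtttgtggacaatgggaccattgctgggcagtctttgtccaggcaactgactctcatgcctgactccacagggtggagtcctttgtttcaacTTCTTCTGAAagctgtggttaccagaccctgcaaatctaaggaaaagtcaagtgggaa
Arg1: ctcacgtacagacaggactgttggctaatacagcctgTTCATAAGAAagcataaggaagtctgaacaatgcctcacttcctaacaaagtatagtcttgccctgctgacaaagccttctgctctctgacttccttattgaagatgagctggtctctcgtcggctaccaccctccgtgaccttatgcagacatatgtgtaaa
Ccr1: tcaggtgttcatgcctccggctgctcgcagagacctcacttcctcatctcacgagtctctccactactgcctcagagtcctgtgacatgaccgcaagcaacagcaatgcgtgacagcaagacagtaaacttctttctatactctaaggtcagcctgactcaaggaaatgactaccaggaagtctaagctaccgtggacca
Aoah: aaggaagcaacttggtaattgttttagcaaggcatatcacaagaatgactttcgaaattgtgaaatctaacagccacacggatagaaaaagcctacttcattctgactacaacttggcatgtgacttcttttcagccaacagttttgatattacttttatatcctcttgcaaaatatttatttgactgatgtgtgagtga

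Values are normalized tags, that is aligned reads in 1000 bp around a site after each library was brought to a common total of 10000000. The 4 libraries held 9949582 to 15570022 tags, so that 1 normalized tag stood for 0.995 to 1.56 reads, and the 2 libraries of a group correlated across sites with r = 0.953 (basal) and 0.957 (24 h IL-4) on the log2 scale. The median site carried 17.04 and 16.29 normalized tags in the basal libraries and 30.15 and 30.19 in the IL-4 libraries. The 4677 sites together took 2.68% and 2.80% of the tags of the basal libraries, against 3.41% and 3.69% after IL-4. The study's methods call the replicates biological, and with 2 a group a p-value measures only the spread between these samples.

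More sites gained the mark with IL-4 than lost it. The classes take the H3K27ac fold and tag thresholds from the study's definition of responsive elements, without its second condition on RNA polymerase II. The mean of each group was raised by 1 tag, and a site whose 2 means then differed 2.5-fold or more was called gained or lost, provided that 1 of the means reached 16 tags. With a difference under 1.4-fold it was called kept. In Egr2flfl macrophages 730 of the 4677 sites (15.6%) gained H3K27ac, 15 (0.321%) lost it and 1305 (27.9%) kept it. These counts use library totals, and the kept share was not recounted under other settings. A further 776 sites (16.6%) showed a smaller rise of 1.4- to 2.5-fold and 231 (4.94%) a smaller fall. The remaining 1620 sites (34.6%) stayed under the filter of 16 tags in both groups and carried little of the mark either way. The other 3057 passed it, among them sites that passed only through the group in which they were high.

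By limma, with Benjamini-Hochberg adjusted p under 0.05 over all sites, 1196 sites (25.6%) were higher after IL-4 and 119 (2.54%) were lower. The higher ones included 705 of the 730 gained sites, and the lower ones all 15 lost sites. Both IL-4 libraries lay above both basal libraries at 2479 sites (53.0%) and below them at 529 (11.3%). The count of higher sites was 688 without the first IL-4 library and 668 without the second, and that of lower sites 33 and 72. Without the first or the second basal library 65 and 42 sites were lower. Scaling to library totals left the larger share of tags in these sites after IL-4 in place. Scaling to the median ratio over the sites instead sets the typical site near no change, although the sites were chosen for induced EGR2 binding. Its balance of rises and falls is therefore partly set by the method. With factors from the Egr2flfl libraries alone, 395 sites gained and 116 lost the mark. Of the changed sites 77.3% had then gained it, against 98.0% with library totals. For limma the factors came from the H3K27ac libraries of both genotypes. They lowered the log2 fold of the median site by 0.45, to 0.048, and the split of limma calls was 640 higher and 502 lower. A mark carried by fewer cells and less of it in each cell cannot be told apart in such bulk libraries.

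**Figure D1:**
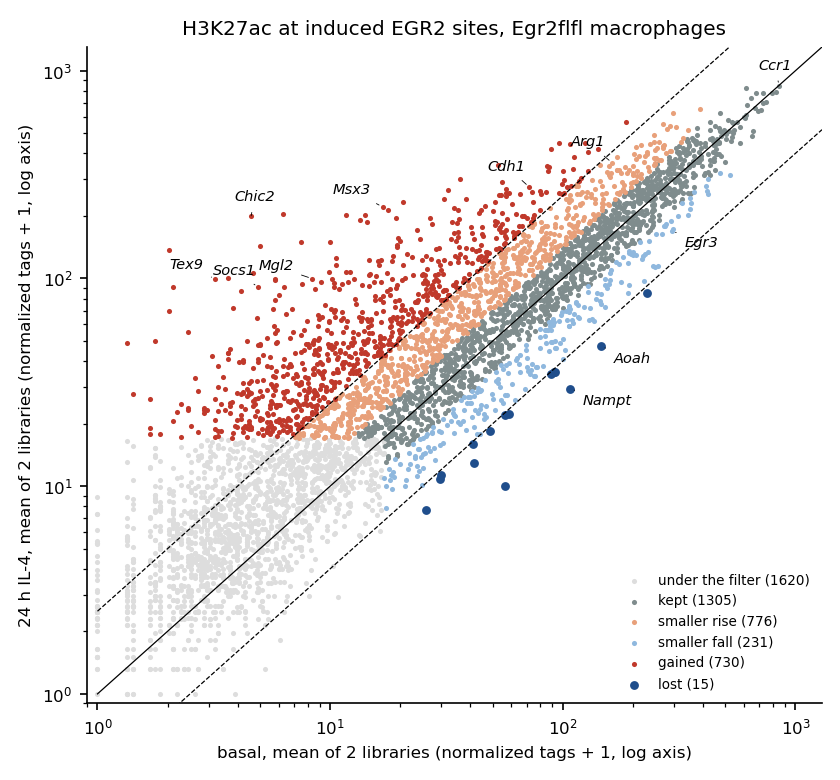
Mean H3K27ac of the 2 basal libraries (x) against the 2 libraries at 24 h of IL-4 (y) in Egr2flfl macrophages, 1 point a site, both as normalized tags plus 1 on log axes. The solid line marks equal values and the dashed lines 2.5-fold, above which lie the 730 gained sites and below which the 15 lost ones. Sites with the highest basal signal, such as that near Ccr1, lie along the solid line.

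A fold of this kind favours sites with little of the mark before IL-4, and a site under 16 basal tags could pass only through its IL-4 libraries. The median of gained sites went from 11.9 and 9.16 tags in the basal libraries to 52.3 and 50.7 after IL-4, whereas kept sites stood at medians of 90.3 and 93.0 tags before and 92.5 and 100.2 after. Of the gained sites, 236 rose at least 5-fold, 57 at least 10-fold, and 93 had fewer than 5 tags in both basal libraries. By basal level, the share of gained sites was 29.8% of the 1025 sites with 5 to 16 tags, 20.0% of the 953 with 16 to 50 tags, 8.46% of the 839 with 50 to 150 tags and 0.175% of the 573 with more. It was 12.6% of the 1287 sites with fewer than 5 basal tags, where any site that reached 16 tags had to count as gained. At the edges of the rule, the site near Noc4l (22.2 and 10.2 tags before, 35.2 and 48.8 after) counted as gained and that near Actn1 (6.82 and 6.79, then 17.1 and 19.9) did not, at 2.505- and 2.498-fold. The site near Dscam (47.7 and 63.1, then 26.1 and 16.1) counted as lost at 2.55-fold lower and that near Umodl1 (75.8 and 123, then 35.2 and 44.3) did not, at 2.46-fold lower.

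The largest rises started from almost nothing. The site near Gm8113, 14159 bp from the gene's start, held 0 and 2.04 normalized tags in the basal libraries and 134 and 138 after IL-4. Those are 3 reads against 348, a ratio of reads of 120 with a 95% interval of 40.8 to 586 that covers counting error only. In the intron of Il31ra, a subunit of the IL-31 receptor, H3K27ac went from 0.85 and 1.36 tags to 65.3 and 115. In the intron of Nbas, which acts in transport between Golgi and endoplasmic reticulum, it went from 0 and 2.04 tags to 55.3 and 82.2. All basal libraries of these sites lay far below the IL-4 ones, but each basal group rested on 3 reads, and the ratios of reads were 84.4 (28.5 to 412) and 63.3 (21.3 to 309.6).

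Near Wars2, the mitochondrial tryptophanyl-tRNA synthetase, a single basal read stood against 121 after IL-4, a ratio of 126 (22.1 to 4997). The site near Tex9, which is printed above, rose from 1.70 and 2.72 tags to 111 and 86.1, 30.9-fold on the means plus 1. On the log2 scale of limma the Tex9 site rose by 4.96 ± 0.50 (SE, adjusted p = 4.90e-06). The site near March10, a RING-type ubiquitin ligase, rose from 5.11 and 5.43 tags to 196 and 209, and that near Chic2, inside Gm6116, from 5.11 and 2.04 to 221 and 177. The site near 1700021F07Rik completed the 8 largest rises, at 28.6-fold. Separate libraries were part of the rule that named these 8, and each was called higher under every alternative setting tried.

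Genes of alternative activation stood out by count. Of 27 genes on the list, 13 were the nearest gene of at least 1 site, and at the site with the highest mean for each gene 10 were higher by limma, 0 were lower and 3 had no call. Over the 3129 genes nearest to any site, taken the same way, 23.6% were higher, 3.26% lower and 13.8% gained by the fold rule. The median log2 fold was 1.44 for the list and 0.42 for all genes. The list was chosen with results of these data known, so the count is a description. The 13 genes had 43 sites and the 3129 genes 4677, so list genes had more sites to pick from. The part of this in the count was not tested.

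Msx3, a homeobox factor, had 18.8 and 12.9 tags in the basal libraries and 210.1 and 229 after IL-4 at a site 2859 bp upstream, a rise of 13.1-fold (log2 3.73 ± 0.28, adjusted p = 3.28e-07). Mgl2, a galactose-binding lectin of macrophages, went from 5.96 and 8.82 tags to 87.4 and 109.8 at a site 15604 bp upstream, 11.9-fold (log2 3.58 ± 0.35, adjusted p = 3.80e-06). Tmem26, a membrane protein, went from 43.5 and 25.1 tags to 219 and 204. In these 3 genes both IL-4 libraries lay well above both basal ones.

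An intron of Cdh1, the adhesion protein E-cadherin, rose from 69.0 and 72.6 tags to 277 and 270.4, 3.83-fold with hardly any spread between replicates. Irf4, a transcription factor of the interferon regulatory family, went from 13.6 and 20.4 to 49.3 and 76.4 tags, and its call was lost without the second IL-4 library (adjusted p = 0.0635). Myc, in a site within Pvt1, went from 28.97 and 44.1 to 90.5 and 109 tags. These 6 genes were the ones of the list that gained the mark at the site taken for them. Other sites of the list genes were not counted here.

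Arg1, the enzyme that splits arginine into ornithine and urea, was already well marked at the site taken for it and rose less there. At a site 2883 bp upstream it had 166 and 158 tags before IL-4 and 348 and 369 after, 2.204-fold (log2 1.14 ± 0.20, adjusted p = 5.20e-04). Mmp12, the macrophage elastase, rose from 57.9 and 63.8 to 128 and 121 tags and Pdcd1lg2, the checkpoint ligand PD-L2, from 244 and 212 to 367 and 440 tags. Chil3, a chitinase-like protein that stayed under the filter, was also called higher, with 2.56 and 2.72 tags before and 13.1 and 10.9 after, and lost the call without any 1 of the 4 libraries (adjusted p from 0.0918 to 0.143). Pdcd1lg2 did so without the second IL-4 library (adjusted p = 0.0501). With median-ratio scaling Chil3, Mmp12 and Pdcd1lg2 had no call.

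The 3 list members without a call were Atp6v0d2, Klf4 and Tgm2. Atp6v0d2, a subunit of the proton pump of acidic organelles, had 29.8 and 14.3 tags before and 40.2 and 42.4 after IL-4 (adjusted p = 0.0992). The site 265886 bp from Klf4, a zinc finger factor, had 144 and 216 tags against 214 and 222. Near Tgm2, a transglutaminase, all 4 libraries held under 7 tags.

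**Figure D2:**
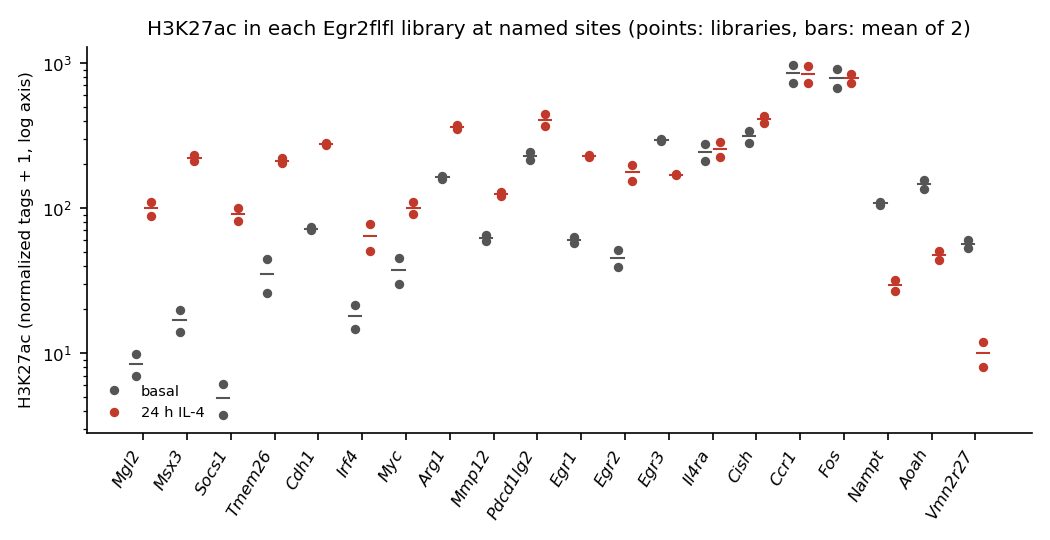
H3K27ac at 20 named sites in each Egr2flfl library (y, normalized tags plus 1 on a log axis), with points for libraries and bars for the mean of 2, basal in grey and 24 h of IL-4 in red. From Mgl2 to Myc and at Socs1, Egr1 and Egr2 the red points lie above the grey ones with a wide gap, at Il4ra, Ccr1 and Fos they overlap, and at Egr3 and from Nampt to Vmn2r27 they lie below.

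EGR family genes did not move together. Egr2 itself gained the mark at an intronic site 3741 bp from its start, from 50.3 and 38.0 tags to 153 and 198, 3.91-fold (log2 1.97 ± 0.25, adjusted p = 3.50e-05). The site nearest to Egr1, 25216 bp away, rose from 56.2 and 62.5 to 230.2 and 224 tags. Egr3 fell at a site 14841 bp upstream, from 289 and 297 tags to 168 and 169.6, a log2 change of -0.79 ± 0.20 with an adjusted p of 0.00709. Nab1, a corepressor that binds EGR proteins, stayed under the filter and had no call. The list of 6 genes had 4 with a site, of which 2 were higher and 1 was lower, beside 23.6% higher and 3.26% lower over all genes.

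Of 12 genes of the IL-4 receptor pathway 6 had a site and 2 of these were higher, beside 23.6% of all genes. Socs1, a suppressor of cytokine signalling that blocks JAK kinases, had 5.11 and 2.72 tags before IL-4 and 98.5 and 80.9 after, 18.5-fold, at the printed site in Clec16a, 82971 bp from its own start (log2 4.24 ± 0.38, adjusted p = 1.31e-06). Socs2, of the same family, rose from 8.52 and 2.04 to 35.2 and 30.8 tags. The other 4 genes with a site had no call.

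In the receptor gene Il4ra, 209 and 274 tags stood against 222 and 284, with the first IL-4 library below the second basal one. Jak1, a kinase bound to the receptor, had 77.5 and 80.1 against 59.3 and 64.2 tags, with a call only under median-ratio scaling. Cish, an inhibitor of STAT signalling, had 281 and 339 against 384 and 430 tags, and Irs2, an adapter of the receptor, 55.4 and 44.1 against 93.5 and 70.7. Both IL-4 libraries lay above both basal ones at Cish and Irs2, with adjusted p of 0.137 and 0.0529. Irs2 was called with a pseudocount of 5 (adjusted p = 0.0449), with the filter of 16 tags (0.0429) and with the Egr2flfl libraries alone (0.0489), and the fold near Cish turned negative with median-ratio scaling.

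The other lists had fewer genes near a site or a smaller share of higher calls, beside 23.6% for all genes. PPARg and lipid handling had 3 of 11 genes with a site higher and 0 lower, among them Abca1, a cholesterol exporter, at 18.8 and 15.6 tags before and 48.2 and 55.2 after, with Cd36, a scavenger receptor, and Plin2, a coat protein of lipid droplets. At Pparg itself the upstream site taken for the list had 170.4 and 222 against 271 and 299.9 tags (adjusted p = 0.0910). Lysosome and phagocytosis genes had 2 of 8 higher, the protease gene Ctsl and the membrane protein gene Lamp2. For matrix and protease genes it was 2 of 5 higher, Plau and Mmp19, and 1 lower, Mmp8.

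Of antigen presentation genes, 2 of 3 were higher, Cd74 (56.2 and 64.5 to 129 and 203 tags), the invariant chain of MHC class II, and Cd83 (21.3 and 15.6 to 125 and 164). Glycolysis had 1 of 4 higher, Pfkp, a phosphofructokinase, at 2.56 and 0 tags before and 21.1 and 26.3 after. Inflammatory genes had 2 of 10 higher and 1 lower. The chemokine gene Ccl2 went from 46.9 and 52.9 to 201 and 177 tags, and the kinase gene Ripk2 from 2.56 and 8.15 to 20.1 and 30.8. The chemokine gene Ccl3 fell from 361 and 469 to 244 and 283 tags (log2 -0.64 ± 0.21, adjusted p = 0.0335). Lineage factors had 2 of 9 higher, Runx1 and Bhlhe40, and 1 lower, Maf, from 29.8 and 35.97 to 19.1 and 14.8 tags. Mx1, the 1 interferon gene with a site, gained the mark by the fold rule, from 16.2 and 17.7 to 46.2 and 42.4 tags, but had no call (adjusted p = 0.0515). The 4 cell cycle genes and 2 chemokine receptors had none either.

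Marker genes of macrophages carried strong H3K27ac before and after IL-4. Of 7 markers 3 had a site, Csf1r, Adgre1 and Spi1, and all 3 were kept, with log2 folds from -0.04 to 0.01. Spi1, which encodes PU.1, had 498 and 723 tags against 506 and 717. The neutrophil marker Mpo had a site with at most 5.03 tags, and no B cell, T cell, dendritic cell or fibroblast marker was the nearest gene of a site, which for sites chosen by EGR2 binding does not measure those cells.

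**Figure D3:**
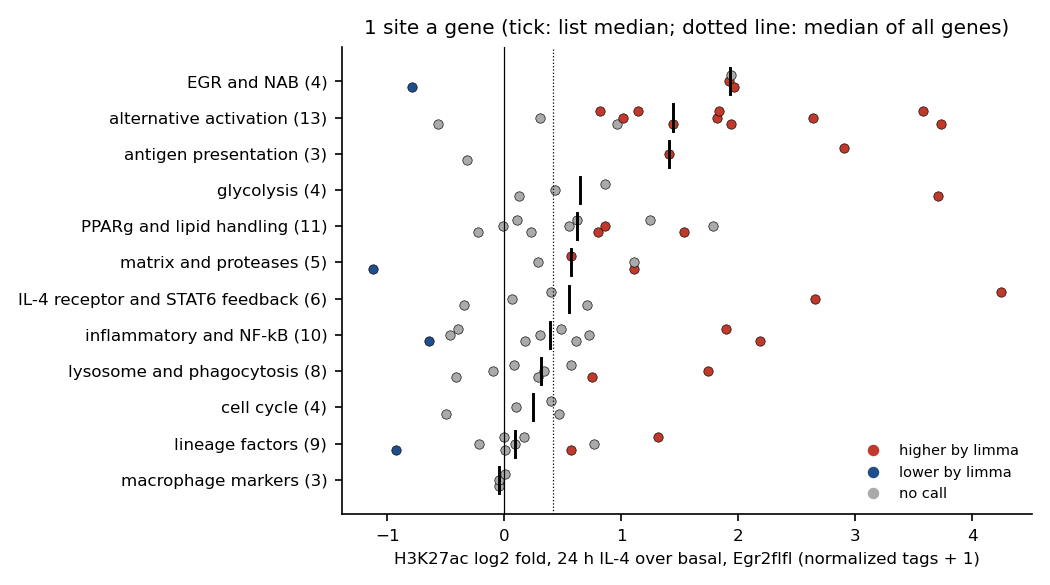
Log2 fold of H3K27ac, 24 h IL-4 over basal in Egr2flfl macrophages (x), for genes of the lists with at least 3 genes near a site (y, with their number), 1 point a gene at its site with the highest mean. Red marks sites higher by limma, blue lower and grey no call. Vertical ticks are list medians, from -0.04 for macrophage markers to 1.93 for EGR and NAB, and the dotted line is the median of all genes, 0.42. The EGR and NAB median rests on 4 genes, among them Egr3, which was lower, and Nab1, under the filter with no call.

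The gained sites lay near 574 of the 3129 genes, and 106 genes had 2 or more. Picked after their values were seen, 7 genes had 5 gained sites each, namely Chic2, Banp, Bhlhe40, Hrh4, Myc, Inhba and Runx1. Bhlhe40, a basic helix-loop-helix repressor, had 8 sites, 5 gained by 2.68- to 8.18-fold and 3 with a smaller rise. Runx1, a factor of blood cell development, had 9 sites, 5 gained by 3.503- to 8.31-fold, 3 with a smaller rise and 1 kept. Myc had 8, spread over 58566 to 463201 bp from its start, 5 gained and 3 with a smaller rise. Inhba, the activin subunit, had 9, of which 5 gained. A gained and a kept site shared a nearest gene 104 times, and a gained and a lost site never did. Neighbouring sites can share a domain of the mark, and 59 of the 1000 bp windows overlapped the next.

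The 15 lost sites lay near 15 different genes. Aoah, an enzyme that detoxifies bacterial lipopolysaccharide, had 155 and 135 tags before IL-4 and 49.3 and 43.0 after, 3.10-fold lower, at the printed site 9672 bp upstream (log2 -1.63 ± 0.27, adjusted p = 3.56e-04). Nampt, an enzyme of NAD synthesis, had 104 and 109 tags before and 31.2 and 25.7 after, 3.66-fold lower, 73604 bp upstream. The site near Vmn2r27, a vomeronasal receptor gene 103150 bp away, went from 52.0 and 59.1 to 7.04 and 10.9 tags, 5.66-fold lower.

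Near Gcg, which encodes glucagon, 36.6 and 44.1 tags fell to 4.02 and 19.9, and near Mycbp2, a ubiquitin ligase, 21.3 and 28.5 fell to 5.03 and 8.35. The call near Gcg was lost without the first IL-4 library (adjusted p = 0.0866). That near Mycbp2 was lost without it or without the second basal library (adjusted p = 0.0658 and 0.0547). Other lost sites lay near Siglece, an inhibitory receptor that binds sialic acid, and Cybb, the catalytic subunit of the phagocyte oxidase. The number of lost sites was 26 without the first basal library and 30 without the second IL-4 library.

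The strongest kept sites had overlapping or nearly equal libraries in both groups. The site 40430 bp from Ccr1, a chemokine receptor, had 727 and 973 tags in the basal libraries and 728 and 952 after IL-4. Csf1r, the receptor for the growth factor CSF-1, had 651 and 1000.5 against 675 and 909 in an intron, and Fos, an AP-1 subunit, 674 and 903 against 729.7 and 830.4 at a site 16180 bp away. In an intron of Zmiz1, a transcriptional coregulator, 769 and 684 tags stood against 801 and 761. None was called, with adjusted p of 0.706 or more. With median-ratio scaling the log2 folds near Ccr1, Csf1r and Fos were -0.52, -0.55 and -0.51, past the limit of 1.4-fold for a kept site, with adjusted p of 0.0597, 0.0787 and 0.0510. At Ccr1, Csf1r and Fos the second library was the higher one in both groups.

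The other marks and factors of the Egr2flfl cells, none of which the rule used, followed the classes in part. H3K4me2, a mark of promoters and enhancers whether active or poised, was higher at 377 of 4677 sites (8.06%) and lower at 7 (0.150%). Among gained sites it was higher at 182 (24.9%), with a median of 21.95 tags before and 37.7 after IL-4, at sites under the H3K27ac filter at as many (182, 11.2%), and among kept sites at 1 of 1305, with a median of 55.7 before and 51.9 after. The 7 lower sites, named after their values were seen, lay near Vmn2r27 (lost), Igf1, Atp5o and Gpatch2l (kept) and Akap7, Hlx and Rmi2 (gained). Without the first IL-4 library 120 sites were higher and 0 lower, and without the second 104 and 41. Without the first basal library it was 211 and 1, and without the second 183 and 1.

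RNA polymerase II (Pol II), with 1 library a condition and so no test, was at least 2.5-fold higher with at least 8 tags at 491 sites (10.5%) and lower at 63 (1.35%). The higher ones included 287 of the gained sites (39.3%) and 24 of the kept ones (1.84%), and the lower ones 7 of the 15 lost sites. The median log2 fold was 1.23 at gained, 0.12 at kept and -1.40 at lost sites. At Msx3 Pol II went from 5.01 to 46.8 tags and at Egr2 from 53.4 to 151, while at Ccr1 178 stood against 214.

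STAT6, measured in 300 bp around the site, was higher at 552 sites (11.8%) and lower at 0 by limma. It was higher at 254 gained sites (34.8%) and 96 kept ones (7.36%), and the median went from 2.23 to 10.3 tags at gained and from 5.92 to 11.8 at kept sites. The medians of both classes lay closer to each other after IL-4 than before it. Near Arg1 the mean of the 2 libraries went from 12.3 to 99.8 tags (adjusted p = 5.53e-04), near Mgl2 from 3.34 to 40.6 and near Tex9 from 1.12 to 68.3. At the printed Egr2 site, which holds the STAT6 motif, it was 2.15 before and 3.82 after (adjusted p = 0.560). The number of called STAT6 sites was 15 without the first IL-4 library, 79 without the second and 99 without the second basal library, against 561 without the first basal library. At an unadjusted p under 0.05 there were 1412 sites in either direction, and edgeR gave 565 higher and 0 lower.

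The lineage factor PU1 was higher at 383 sites (8.19%) and at 193 gained sites (26.4%), against 136 under the filter (8.40%) and 10 kept ones (0.766%). It was lower at 2 (0.0428%), near Maf and Eci2, which were named after their values were seen. CEBPb was higher at 98 sites (2.10%), 49 of them gained (6.71% of gained sites). Both counts rested on every library. PU1 calls numbered 0 without the first IL-4 library, 1 without the second, 80 without the first basal library and 62 without the second. CEBPb calls numbered 0, 1, 0 and 10 in the same order. The second basal PPARg library had a median of 0 tags, with 3124 of the 4677 sites at 0. PPARg had no call by limma, with 954 sites at an unadjusted p under 0.05 and 52 called by edgeR, all higher. Its replicates correlated across sites with r = 0.334 (basal) and 0.597 (24 h), and there were 242 and 186 calls without the first or second IL-4 library and 41 and 50 without the first or second basal library, of which 29 and 50 were lower.

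**Figure D4:**
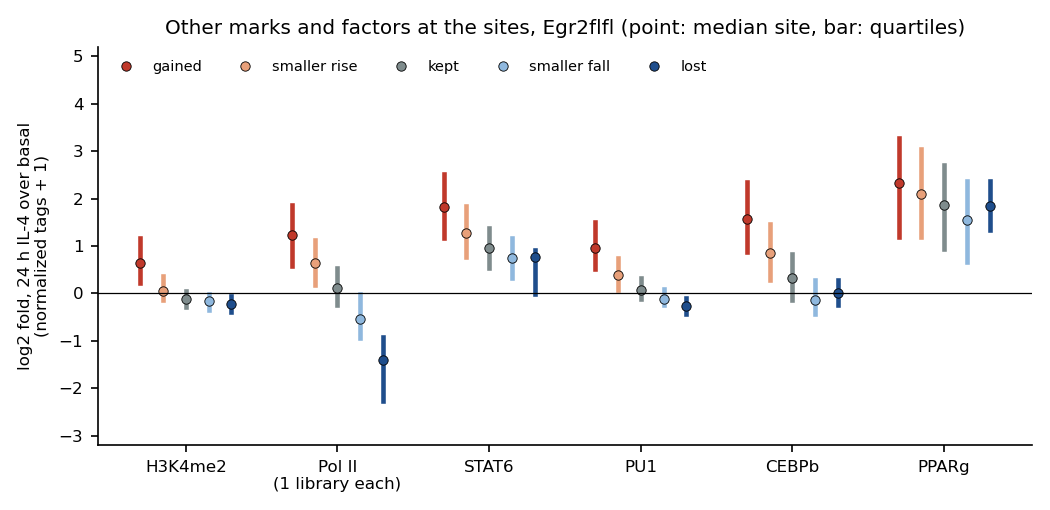
Log2 fold at 24 h of IL-4 over basal in Egr2flfl macrophages (y) of H3K4me2, Pol II and 4 factors (x), with a point for the median site and a bar for the quartiles of each H3K27ac class. Gained sites (red) have the highest median for every target, from 0.64 for H3K4me2 to 2.33 for PPARg, and lost sites (dark blue) the lowest for H3K4me2, Pol II and PU1. The median site of the second basal PPARg library held 0 tags.

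EGR2 binding in C57 macrophages was at least 2-fold higher at 24 h than before IL-4 at all 4677 sites, which the study had chosen as induced, so EGR2 was higher at kept and lost sites too. At 24 h the median EGR2 signal was 38.4 tags at gained, 29.8 at kept and 32.5 at lost sites. An EGR2 peak was listed at 1 or 6 h of IL-4 already for 27.5% of gained sites, 24.1% of sites with a smaller rise, 18.2% of kept sites and 9.57% of those under the filter, against 17.3% of all sites. The EGR2 libraries of 1 h and 6 h differed within pairs, with medians at gained sites of 5.42 and 20.3 tags at 1 h and of 13.97 and 36.2 at 6 h, and their part in these shares was not tested.

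The study took induced EGR2 peaks in introns (2606 sites by the authors' annotation) and between genes (2071), and 184 of them lay within 1000 bp of a protein-coding gene start. Gained sites lay in introns in 52.5% and kept ones in 59.5%, with median distances to the nearest gene start of 32159 and 20941 bp. In 300 bp around the site the EGR motif was present in 57.8% of gained, 48.2% of smaller-rise, 38.0% of kept and 67.6% of under-filter sites, against 27.4% of 50469 open regions of C57 macrophages in introns or between genes. The STAT6 motif was present in 38.1% of gained, 25.4% of smaller-rise, 17.7% of kept, 8.23% of smaller-fall and 16.2% of under-filter sites, against 7.98% of those open regions. Both together were in 19.2% of gained, 5.21% of kept and 10.1% of under-filter sites, against 9.58% of all sites. No STAT6 match overlapped an EGR match.

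Motifs of other macrophage factors differed less between gained and kept sites. The PU.1 letters GAGGAAGT were in 6.99% and 9.27%, the C/EBP letters TTGCNNAA in 16.03% and 22.7%, and the AP-1 letters TGANTCA in 28.1% and 27.6%, each on either strand, with 8 sites where a PU.1 match and 12 where an AP-1 match overlapped an EGR match. The shares among open regions were 11.1%, 18.2% and 23.8%. The median GC content of the 300 bp was 46.3% in gained, 47.3% in kept sites and 49.7% in the open regions.

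The same contrast in C57 macrophages, from other mice and libraries, was read from the authors' table of 67742 open regions by taking the region whose centre was nearest and within 500 bp. A region was found for 3018 sites, 485 of them gained in Egr2flfl. By the same fold rule 327 of these 485 (67.4%) were gained in C57, against 15.7% of the 3018 matched sites and 3.46% of all C57 regions. None of the 485 was lost there, against 3.11% of the matched sites and 7.55% of all regions. In 482 of 485 the fold was above 1, against 60.3% of the 3018 matched sites. The exceptions, named after their values were seen, were near Smad2, Chd7 and Kbtbd8. The median log2 fold in C57 was 2.07 at gained, 0.66 at smaller-rise, -0.41 at kept and -0.87 at smaller-fall sites, beside -0.28 over all C57 regions. At the 12 lost sites with a region it was -0.68, with 4 of the 12 lost in C57 and 2 with a fold above 1. The folds of both backgrounds correlated with r = 0.77 across the 3018 sites, a description over points that share their libraries.

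Open regions took 65.4% and 59.6% of tags of the basal C57 libraries and 43.2% and 38.2% of the IL-4 ones, whose part in the lower C57 folds was not tested. The limma test called 0 C57 regions, with 14904 at an unadjusted p under 0.05 and 0 called by edgeR, and 240 and 100 were called without the first or second basal C57 library. Near Mgl2 C57 had 8.14 and 14.3 tags before and 56.0 and 92.5 after IL-4, and near Msx3 4.07 and 5.70 against 137 and 140.4. Near Egr3, 325 and 276 stood against 128 and 86.0, and near Ccr1, kept in Egr2flfl, 1432 and 1111 against 939.7 and 533.

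In the C57 time course the matched gained sites (582) had medians of 8.16 tags at 0 h, 17.9 at 1 h, 40.9 at 6 h and 45.6 at 24 h, so the median at 6 h was close to that at 24 h. The matched lost sites (14) had 43.3 tags at 0 h, 14.2 at 1 h, 15.9 at 6 h and 17.8 at 24 h. Kept sites had medians of 96.3, 52.2, 82.7 and 72.6 tags at the same times.

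**Figure D5:**
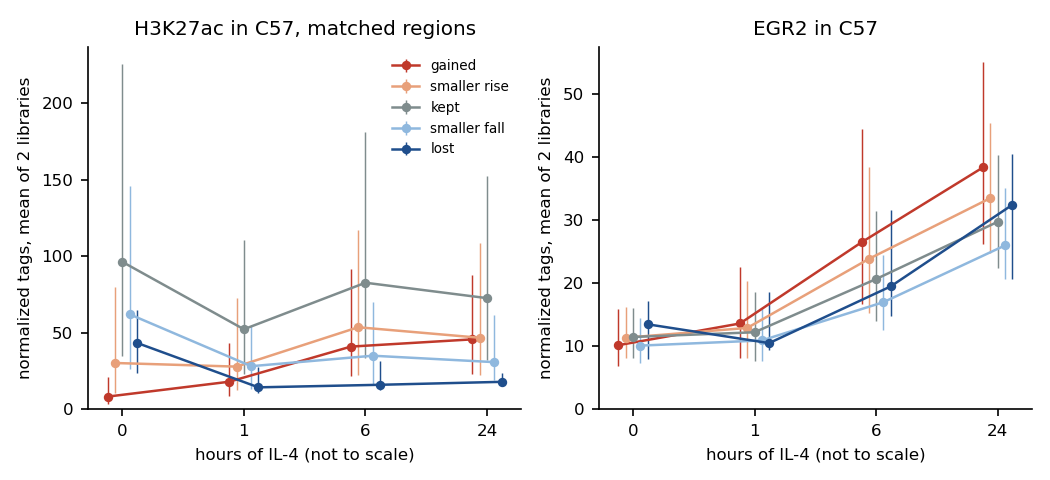
C57 macrophages at 0, 1, 6 and 24 h of IL-4 (x, not to scale), with H3K27ac of the matched regions at left and EGR2 at the sites at right (y, normalized tags, mean of 2 libraries). Points are medians over the sites of each Egr2flfl class and bars their quartiles. Gained sites rise from a median of 8.16 to 45.6 tags of H3K27ac. In every other class shown, not only at lost sites, the H3K27ac median is lower at 1 h than at 0 h. EGR2 rises by 24 h in every class.

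Set beside the LyzMCreEgr2flfl macrophages, in which Cre acts on the floxed alleles, Egr2flfl cells had more gained sites with library totals. No single site passed the test of the difference in the main fit, with all libraries, a pseudocount of 1 and no replicate block. By the same fold rule 376 sites (8.04%) gained and 50 (1.07%) lost the mark in LyzMCreEgr2flfl, against 730 and 15. With median-ratio scaling the Egr2flfl counts were 395 and 116. LyzMCreEgr2flfl sites were not counted under that scaling, so its part in this contrast was not tested. The LyzMCreEgr2flfl library medians were 12.03 and 12.89 tags before and 16.62 and 16.83 after IL-4. Of the Egr2flfl gained sites, 295 (40.4%) were gained in both, and the median log2 fold of all sites was 0.50 in Egr2flfl and 0.14 in LyzMCreEgr2flfl. The test of the difference between the responses (the interaction in limma) called 0 of 4677 sites, with a smallest adjusted p of 0.0838. With a pseudocount of 5 in place of 1 it called 60, of which 58 had the larger response in Egr2flfl. At an unadjusted p under 0.05 there were 546 sites with a larger response in Egr2flfl and 69 with a smaller one. Both edgeR and limma with median-ratio scaling called 0. Without the second LyzMCreEgr2flfl IL-4 library 16 sites were called, without its second basal library 8 and without the second Egr2flfl basal library 1. Since the classes were cut from the Egr2flfl values, the median difference of 0.74 at gained sites leans towards Egr2flfl and is no test. Whether Egr2 was deleted was not checked here.

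None of the named sites passed that test in the main fit, and their values are given side by side. Near Il31ra the LyzMCreEgr2flfl libraries had 1.00 and 3.36 tags before and 12.5 and 22.6 after IL-4, and the log2 difference in response was 2.80 ± 0.74 (adjusted p = 0.167). Near Tex9 they had 1.00 and 0 against 11.4 and 13.9 tags (difference 1.69 ± 0.71, adjusted p = 0.317). Near Gm8113 they reached 196 and 217 tags (difference 0.16 ± 0.69) and near March10 203 and 215 (difference 0.05 ± 0.44), levels at or above those of Egr2flfl.

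Near Msx3 the LyzMCreEgr2flfl libraries had 4.01 and 6.17 against 291 and 304 tags (difference -1.90 ± 0.39, adjusted p = 0.0838). Near Arg1 101 and 132 stood against 422 and 373 tags (difference -0.63 ± 0.28, adjusted p = 0.356) and near Mgl2 9.03 and 6.73 against 84.2 and 156. Near Egr3 279.8 and 309 stood against 145 and 191 tags (difference 0.02 ± 0.28, adjusted p = 0.982). At the lost sites near Aoah and Nampt LyzMCreEgr2flfl cells also had less of the mark after IL-4, with 183 and 98.7 against 56.1 and 47.0 tags and 47.1 and 68.4 against 6.23 and 15.7.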

How the data were processed

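ChIP-seq reads were aligned by the authors to mm10 with Bowtie2 and counted with HOMER. The deposited signal values are tags of each library scaled to 10000000 of its total, with replicates kept apart. EGR2 peak lists, of which only positions were used and not the deposited score, hold peaks the authors found reproducible between replicates. A signal value times its library total gave whole reads within 0.1 read for 100% of 243204 values, and edgeR 4.0.16 and DESeq2 1.42.0 ran on these reads. Each target was tested with limma 3.58.1 (R 4.3.3, trend) on log2(tags + 1) over its Egr2flfl and LyzMCreEgr2flfl libraries with no filter, a scale that understates folds of low sites. Pol II had 1 matched library a group, since 4 columns matched no sample.

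Nearest genes are protein-coding starts in GENCODE vM21. Named sites were the 8 largest rises, the 5 largest falls (both past the fold rule with separate libraries), the 4 strongest kept sites, 3 gene lists and the edges of the rule. For a list gene with several sites, that with the highest mean over the 4 libraries was taken. Members and lists were chosen with earlier results of these data known. Fits were tested on simulated data. Alternatives were another pseudocount, filter, fold, scaling, test, a replicate block and leaving out each library.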

Additional observations from a re-analysis of the deposited data

Results flagged for a closer look

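H3K4me2, the second histone mark, differed between the genotypes in its response to IL-4 at 2 of 4677 sites, both under the H3K27ac filter in Egr2flfl macrophages. The same test was run for H3K27ac, STAT6, PPARg, PU1 and CEBPb, and H3K4me2 was the only target with a call. For H3K4me2 it was not repeated under other settings or without single libraries. The first lay 548 bp from the start of Spata21. Its H3K4me2 rose from 2.70 and 1.89 to 30.1 and 28.2 tags in Egr2flfl and stood at 9.87 and 4.82 against 1.44 and 6.16 in LyzMCreEgr2flfl, and the log2 difference, Egr2flfl minus LyzMCreEgr2flfl, was 4.13 ± 0.77 (limma interaction, adjusted p = 4.53e-04). The second lay 8212 bp upstream of Src, a tyrosine kinase. Its H3K4me2 rose from 1.80 and 2.51 to 26.9 and 22.6 tags in Egr2flfl and stood at 6.34 and 3.07 against 2.89 and 1.54, a difference of 3.83 ± 0.84 (adjusted p = 0.0134).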

How the results depend on the processing

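With median-ratio scaling the fold rule gave 395 gained and 116 lost sites and limma 640 higher and 502 lower. A pseudocount of 5 gave 6 lost sites, no filter 25 and a fold of 2 gave 57. The pseudocount of 5 also gave 60 sites with a different response between genotypes, 929 STAT6, 630 PU1 and 426 CEBPb calls. DESeq2 called 76 sites lower, and edgeR called 738 PU1, 19 CEBPb and 52 PPARg sites. Replicate numbers are shared in the labels, but deviations of same-numbered Egr2flfl H3K27ac libraries correlated at 0.20 and those of C57 at 0.47, with 2 pairs each and no shared batch stated. With the replicate block the calls were 1437 higher, 219 lower, 72 for the genotype difference, 1243 for STAT6, 156 for CEBPb and 25757 for C57 regions (5736 higher and 20021 lower), and Irs2 and Cish were called (adjusted p = 0.0132 and 0.0114).
Leaving out 1 library gave 13 to 30 lost sites, 699 to 802 gained, 668 to 950 higher and 33 to 72 lower. It gave 0 to 16 calls for the genotype difference, 120 to 212 for H3K4me2, 15 to 561 for STAT6, 41 to 242 for PPARg, 0 to 80 for PU1, 0 to 10 for CEBPb and 0 to 240 for C57 regions. Where this left 1 library in a group, that library was assumed to vary like the others.
Of 44 named sites 32 were called, and 22 of these kept the call in every setting. Of those without a call, Ccr1, Csf1r, Fos, Zmiz1, Klf4, Il4ra and Cish changed sign in at least 1 setting, Atp6v0d2, Nab1, Jak1, Irs2 and Cish gained a call in at least 1, and Tgm2 did neither. Over the fits without 1 library the log2 fold ran from -0.22 to 0.20 near Ccr1, from -0.35 to 0.27 near Csf1r, from -0.21 to 0.21 near Fos and from -0.13 to 0.27 near Il4ra. It was above 0 near Ccr1 (0.18), Csf1r (0.17) and Fos (0.090) without the first IL-4 library as well as without the second basal one, and below 0 near Il4ra without the second IL-4 library (-0.11) or the first basal one. With median-ratio scaling it was -0.55 near Csf1r, -0.52 near Ccr1, -0.51 near Fos, -0.43 near Il4ra, -0.40 near Zmiz1, -0.20 near Klf4 and -0.11 near Cish. Depth limits the 1620 sites under the filter and the largest rises, which rest on 1 to 14 basal reads.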

Other observations

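Among the 1620 sites under the filter of 16 tags, 148 were called higher by limma and 5 lower. Near Ear1, an eosinophil-associated ribonuclease, 0 and 0.68 tags stood against 18.1 and 12.9 (log2 3.65 ± 0.70, adjusted p = 0.00113). Near Csf1, which encodes the growth factor that sustains macrophages, 0.85 and 0 tags stood against 7.04 and 8.35 at a site under the filter (log2 2.67 ± 0.61, adjusted p = 0.00359), while 3 other sites nearest to Csf1 were gained, by 2.86- to 3.55-fold. These genes were picked after their values were seen.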
